A study of Mus musculus with 88 samples.

Results

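Tubulins are the protein subunits of microtubules. This report describes the transcripts of 10 mouse tubulin genes in single germinal vesicle (GV) oocytes of young and aged females. The 10 genes were taken by name, as the α-tubulins Tuba1a, Tuba1b, Tuba1c and Tuba4a, the β-tubulins Tubb2a, Tubb2b, Tubb4b, Tubb5 and Tubb6, and the γ-tubulin Tubg1. Each was looked up among the 38540 features of an oocyte-specific transcript annotation. A feature was taken by its name in the supplementary table or, failing that, by the GENCODE M21 gene whose span on the same strand (GRCm38) overlapped it best, with at least 0.3 of the joint span shared. A feature was found for 8 of the 10. Tubb2a and Tubb2b have no feature of their own, because both lie inside 1 longer feature.

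The data are single-oocyte RNA-seq libraries of C57BL/6Babr mice with no other genotype or treatment. Fully grown GV oocytes came from females of 12 weeks (young, 42 oocytes) or 44 to 54 weeks (labelled old, here called aged, 46 oocytes). Per oocyte, polyadenylated RNA was captured with oligo-dT and amplified by Smart-seq2, without molecular identifiers, so counts are reads and not molecules. Within each age the oocytes were split by chromatin configuration, NSN (non-surrounded nucleolus) or SN (surrounded nucleolus), which the study predicted from the transcripts of these same libraries. The split gave 30 young NSN, 12 young SN, 37 aged NSN and 8 aged SN oocytes, and 1 aged oocyte without a configuration was set apart, leaving 87. Since the configuration was read from the same transcripts, differences between NSN and SN are given as descriptions. The labels do not tie an oocyte to a mouse, so each age counts as 1 sample, no test between groups was made and no p-value is given. Intervals below cover counting error only, and the spread over oocytes is given beside them.

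Microtubules are built from heterodimers of α- and β-tubulin, and γ-tubulin, in a ring complex with other proteins, starts their growth. A fully grown oocyte is transcriptionally near silent once its chromatin surrounds the nucleolus, and it later builds its meiotic spindle without centrioles from stored transcripts and proteins. The genes of each family encode very similar bodies and differ most in the acidic C-terminal tail, where glutamate residues accept side chains of further glutamates. The first residues of nascent α- and β-tubulin are recognised by TTC5, which triggers decay of tubulin mRNAs when free tubulin is abundant.

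The coding starts are shown because that recognition reads them. They come from GENCODE M21 transcripts (GRCm38), 5′ to 3′, with the first 12 bases, which encode the recognised residues in α- and β-tubulin, in capitals. Tubg1 is shown for contrast.
Tuba1b: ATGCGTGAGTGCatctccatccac
Tuba1c: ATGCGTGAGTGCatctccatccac
Tuba4a: ATGCGCGAGTGCatttcagtccat
Tubb4b: ATGAGGGAGATCgtgcacctgcag
Tubb5: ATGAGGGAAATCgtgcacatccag
Tubg1: ATGCCGAGAGAAatcatcacccta
Tuba1b and Tuba1c shared all 24 of these bases. The capitals of the 3 α-tubulins encode methionine, arginine, glutamate and cysteine, those of the 2 β-tubulins end in isoleucine in place of cysteine, and Tubg1 differs. The features over these genes are at chr15:98931425-98934565 (minus strand) for Tuba1b, chr15:99029803-99038409 (plus) for Tuba1c, chr1:75214974-75219329 (minus) for Tuba4a, chr2:25222160-25224756 (minus) for Tubb4b, chr17:35833917-35838958 (minus) for Tubb5 and chr11:101119938-101126419 (plus) for Tubg1, and the bases shown are the coding parts of exons.

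The ends of the coding sequences of 4 members are shown because the isotypes differ there. These are the last 20 codons before the stop codon, with glutamate codons (GAA or GAG) in capitals.
Tuba4a: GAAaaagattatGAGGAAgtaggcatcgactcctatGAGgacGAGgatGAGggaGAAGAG
Tubb4b: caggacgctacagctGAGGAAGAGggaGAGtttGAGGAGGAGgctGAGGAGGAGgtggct
Tubb5: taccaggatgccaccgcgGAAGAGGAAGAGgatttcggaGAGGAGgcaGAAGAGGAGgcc
Tubg1: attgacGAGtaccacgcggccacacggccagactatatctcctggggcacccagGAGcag
The tail of Tubb4b held 10 glutamate codons, that of Tubb5 9 and that of Tuba4a 8, while the end of Tubg1 held 2. Most α-tubulins end in a tyrosine that is removed and put back in the tyrosination cycle. Tuba4a ends in a glutamate codon and so lacks an encoded terminal tyrosine.

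Likeness between the genes limits how well reads can be assigned. Of all 100-base windows of the Tuba1b transcript, 73.0% also occurred in a transcript of another gene, as did 72.5% of those of Tuba1a and 53.4% of those of Tuba1c. The share was 30.6% for Tubb4b, most of it with the pseudogene Tubb4b-ps1, and 26.8% for Tuba4a, all of it with Stk16 on the opposite strand. For Tubg1 it was 4.11%, shared with Tubg2, and no window of Tubb5 or Tubb6 was shared. The split of reads among Tuba1a, Tuba1b and Tuba1c is therefore uncertain, and their sum is given beside them.

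Total counts per oocyte ran from 1579196 to 8231046 in young and from 976456 to 5448310 in aged oocytes. The libraries carried oocyte transcripts at high level. The summed level of 10 oocyte markers lay between 19240 and 33036 counts per 1000000 counts of the library (CPM) in young and between 12179 and 33138 in aged oocytes, all 10 having a mean count of at least 10. The summed level of 11 granulosa cell markers lay between 32.7 and 132 CPM in young and between 29.1 and 148 in aged oocytes, with Foxl2 counted in 6 and Amh in 13 of the 87 oocytes. Of the 11 granulosa markers 4 passed a mean count of 10, namely Inha, Kitl, Nr5a2 and Gja1.

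Levels of genes were compared per kilobase of transcript (CPM per kb) over the 8 members and 7 other tubulin genes with a feature. Tubb4b, a β-tubulin of cilia and many cell types, had the highest pooled level, at 787 CPM per kb in young and 733 in aged oocytes. Its feature carries the name Fam166a in the supplementary table and that of Tuba4a the name Stk16, after neighbours on the opposite strand. Both overlap a feature on that strand, and without a stated strand setting reads from the 2 strands cannot be told apart. The same limit holds for Tuba1c, Tubb6, Tubg1, Tubg2, Tuba3b, Tubd1 and Tube1, whose features also overlap features on the opposite strand. Tubb6 followed at 301 and 318, and stood below Tubb4b in every one of the 87 oocytes. Tuba3a, an α-tubulin outside the 10 genes known from testis, was next at 252 in young and 251 in aged oocytes, and Tuba4a reached 172 and 176. Tubb6 and Tuba3a were not apart beyond their spread, with Tubb6 the higher in 33 of 42 young and 40 of 45 aged oocytes.

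The middle of the order was held by Tubb3, a β-tubulin best known from neurons, at 128 CPM per kb in young and 123 in aged oocytes, Tubb5 at 85.7 and 81.5, and Tubg2 at 79.5 and 81.2. Tubb3 exceeded Tubb5 in all 87 oocytes, whereas Tubb5 exceeded Tubg2 in 28 of 42 young and 21 of 45 aged oocytes, so that pair was not ordered. Tuba1c had 53.7 and 45.1 CPM per kb, Tuba3b 33.3 and 27.2, Tuba1b 23 and 20.2, Tubd1 22.6 and 21.1, Tubg1 17.6 and 17.5, Tubal3 14.7 and 15.9, and Tube1 10.9 and 11.8. Tuba1a was last at 0.893 and 0.837. The γ-tubulin level per kb was therefore mostly that of Tubg2, the paralog described as brain-enriched, rather than of Tubg1. Both features overlap a feature on the opposite strand, and the strand of their reads was not tested. Without division by length Tubb4b stayed first and Tuba1a last.

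**Figure D1:**
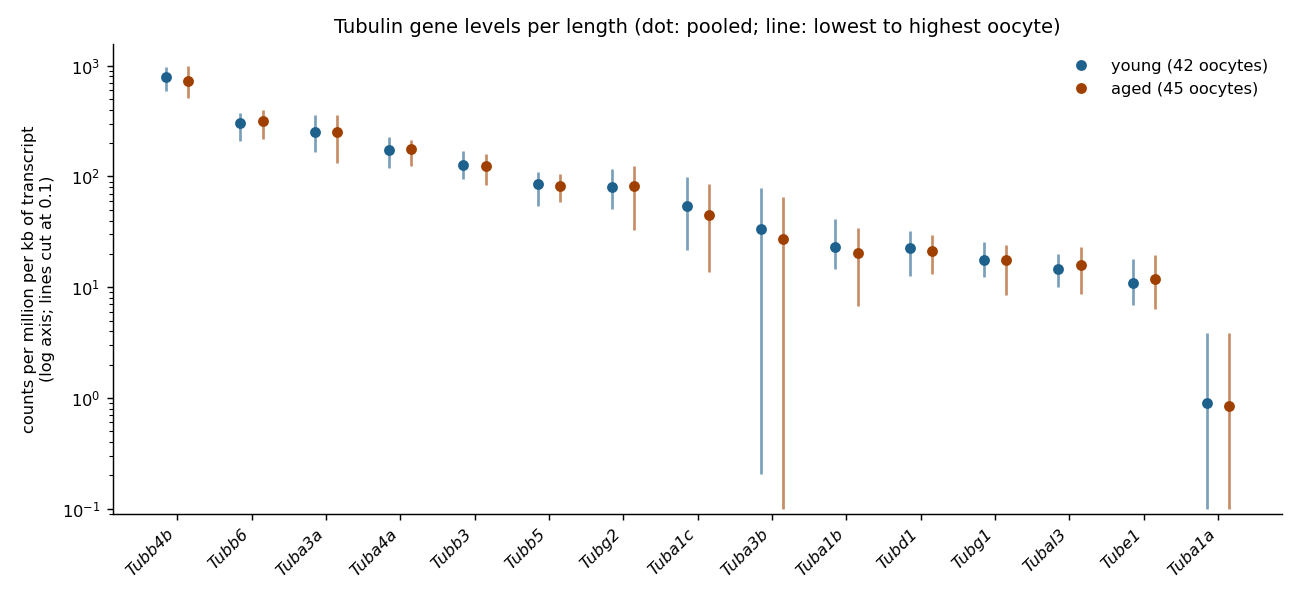
Pooled level per kilobase of transcript of the 15 tubulin genes with a feature, on a log axis, for 42 young and 45 aged oocytes. Lines run from the lowest to the highest oocyte and are cut at 0.1, and Tubb4b stands highest at 787 (young) and 733 (aged) CPM per kb while Tuba1a stands lowest at 0.893 and 0.837.

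Shares per length show the same order from within each oocyte. Tubb4b made up 60.7% ± 2.61 (SD over 42 oocytes) of the β-tubulin level per kb in young and 58.7% ± 3.49 (45 oocytes) in aged oocytes. Tubb6 made up 22.9% ± 1.91 and 25.1% ± 2.63, Tubb3 9.82% ± 1.19 and 9.79% ± 1.37, and Tubb5 6.57% ± 0.876 and 6.46% ± 0.812. The combined feature of Tubb2a and Tubb2b is not in these shares. Among α-tubulins Tuba3a held 45.6% ± 3.82 in young and 46.6% ± 4.44 in aged oocytes and Tuba4a 31.4% ± 3.77 and 33.1% ± 4.02. The summed β level was 2.38 ± 0.223 times the summed α level in young and 2.37 ± 0.251 times in aged oocytes.

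Between ages the tubulin transcripts differed little. A member was called different where the log2 ratio of its pooled CPM was at least 0.32 in size. The same limit was applied, as a background, to the 12408 features whose mean count per oocyte was 10 or more. In aged over young oocytes 0 of the 8 members passed the limit, against 1.06% of the features higher and 3.45% lower. Of the oocyte markers 0 of 10 passed it, and of the 4 granulosa markers 1 was lower, Gja1, at 6.98 CPM in young and 3.44 in aged oocytes (log2 ratio -1.02). The median log2 ratio of the 8 members was -0.08 and that of all features -0.01. Of the 8 members 7 were among the 12408 features, the exception being Tuba1a with a mean count of 4.05.

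Tuba1a, an α-tubulin prominent in developing brain, was close to the limit of detection. It was counted in 36 of 42 young and 33 of 45 aged oocytes. Its level in young oocytes had a lowest value of 0, a median of 1.11 and a highest value of 6.36 CPM, and in aged oocytes of 0, 0.955 and 6.29. The aged over young log2 ratio was -0.09 (95% interval -0.41 to 0.22), so neither direction was resolved at this depth.

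Tuba1b, an α-tubulin found in most dividing cells, had a lowest level of 25.2, a median of 39 and a highest level of 71.6 CPM in young oocytes. In aged oocytes the 3 values were 11.7, 32.7 and 59.6 CPM. The groups overlapped, with 11 of 45 aged oocytes below the lowest young one, and the log2 ratio of the pooled levels was -0.19 (-0.25 to -0.13).

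Tuba1c, also widely expressed, had a lowest level of 43.1, a median of 103 and a highest level of 195 CPM in young oocytes and of 27.2, 89.8 and 170 in aged oocytes. Its log2 ratio, -0.25 (-0.29 to -0.22), was the lowest of the 8 members. The ranges overlapped, with 4 aged oocytes below the lowest young one and 13 of 45 above the young median. The libraries are named with numbers in 3 runs per age, whose meaning the labels do not give. Tuba1c was at 78.1 to 99.9 CPM in the aged runs and at 96.6 to 111 in the young runs. Without the aged names 41 to 48 its log2 ratio was -0.38 and past the limit, and without the aged names 25 to 31 it was -0.17. By name suffix it was -0.16 with suffix A only and -0.36 without suffix. The sum of Tuba1a, Tuba1b and Tuba1c had a log2 ratio of -0.23 (-0.26 to -0.20). Without the aged names 41 to 48 it was -0.35, past the limit, and that of Tuba1b was -0.30. Without the aged names 25 to 31 the sum gave -0.16 and Tuba1b -0.13.

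Within NSN oocytes Tuba1b was at 37.4 CPM in young and 32.1 in aged, a log2 ratio of -0.22 (-0.29 to -0.15), and Tuba1c at 94.6 and 80.6, a log2 ratio of -0.23 (-0.27 to -0.19). Of the members 0 of 8 passed the limit here, where 1.31% of all features were higher and 4.58% lower. Of the oocyte markers 0 of 10 passed it, and of the 4 granulosa markers 2 were lower, Gja1 (-1.29) and Inha (-0.42). The Tuba1c and Tuba1b ratios changed in size with the name run left out. Without the aged names 25 to 31 Tuba1c gave -0.08 and Tuba1b -0.10. Without the aged names 41 to 48 they gave -0.39 and -0.36, past the limit. Within SN oocytes the log2 ratio was 0.08 (-0.03 to 0.20) for Tuba1b and -0.06 (-0.13 to 0.01) for Tuba1c. Again 0 of 8 members passed, beside 8.39% of features higher and 7.61% lower. The largest ratio there was that of Tubb4b, at 1198 CPM in the young and 1023 in the aged SN group, a log2 ratio of -0.23 (-0.25 to -0.20), with 0 of 8 aged SN oocytes above the young SN median. Tubb6 was at 548 and 584 CPM, 0.09 (0.06 to 0.13), with 8 of 8 above it. Whether the SN and NSN ratios differ was not tested.

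Tuba4a, the α-tubulin without a terminal tyrosine, had a lowest level of 251, a median of 363 and a highest level of 476 CPM in young oocytes and of 258, 380 and 451 in aged ones. The 2 ages covered nearly the same range, and the log2 ratio was 0.04 (0.02 to 0.05). The summed α members were at 508 CPM in young and 495 in aged oocytes, a log2 ratio of -0.04 (-0.05 to -0.02), of which the Tuba1 genes made up 148 and 126 CPM.

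Tubb4b had a lowest level of 952, a median of 1258 and a highest level of 1558 CPM in young oocytes and of 821, 1178 and 1585 in aged ones. The log2 ratio was -0.10 (-0.11 to -0.09), and 14 of 45 aged oocytes lay above the young median. The 3 aged name runs lay between 1121 and 1243 CPM, just below the 3 young runs at 1244 to 1282. Of all features, the aged runs lay all below the young runs for 7.10% and all above them for 6.21%.

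Tubb5, the β-tubulin of most dividing cells, had a lowest level of 145, a median of 225 and a highest level of 293 CPM in young oocytes and of 157, 216 and 279 in aged ones, a log2 ratio of -0.07 (-0.10 to -0.05). Tubb6, a β-tubulin known from muscle and other non-neuronal tissues, had 365, 513 and 657 CPM in young and 381, 561 and 700 in aged oocytes. It was the member with the highest aged over young log2 ratio, 0.08 (0.06 to 0.09), with 33 of 45 aged oocytes above the young median. The ranges of both genes overlapped almost in full. The summed β members gave -0.05 (-0.06 to -0.04).

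Tubg1, the γ-tubulin of centrosomes and spindles, had a lowest level of 22.4, a median of 31.3 and a highest level of 45.8 CPM in young and of 15.4, 30.5 and 43.5 in aged oocytes. The log2 ratio was -0.02 (-0.08 to 0.05), which spans 0, and 6 aged oocytes lay below the lowest young one. Its feature lies within the span of the Retreg3 feature on the opposite strand, and no source used here says whether counting used strand.

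The combined feature over Tubb2a and Tubb2b, at chr13:34073364-34131215 on the minus strand, also spans 4930447K03Rik, Gm47065 and Gm47076, so its counts cannot be given to either tubulin gene. It was looked at after the rule had failed for both genes. It stood at 633 CPM in young and 574 in aged oocytes, a log2 ratio of -0.14 (-0.16 to -0.13), with the aged runs at 530 to 597 and the young runs at 622 to 644 CPM.

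**Figure D2:**
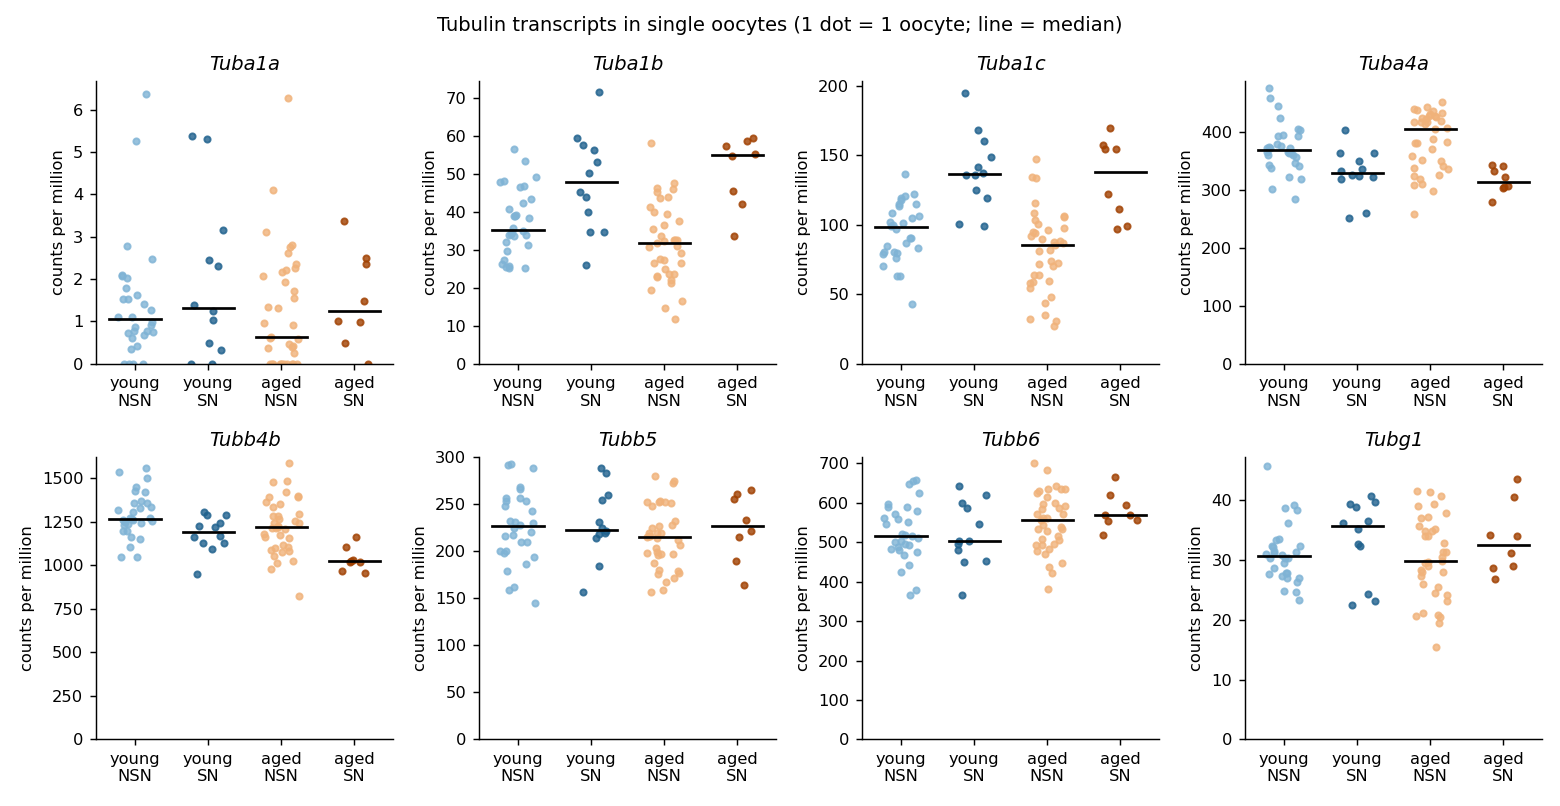
Level of each of the 8 members in 87 oocytes, in CPM on linear axes from 0, by age and chromatin configuration, with 1 dot per oocyte and a line at the median. Tuba1b and Tuba1c stand higher in SN than in NSN oocytes of both ages, with medians for Tuba1c of 98.1 and 136 CPM in young and 85.5 and 138 in aged oocytes, and every group of each gene overlaps the others.

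Between configurations the members past the limit were higher in SN. In young oocytes 2 of the 8 members, Tuba1b and Tuba1c, were higher in SN than in NSN by at least that limit, against 10.9% of all features, and 0 were lower, against 4.38%. In aged oocytes 3 of 8 were higher, Tuba1b, Tuba1c and Tuba1a, against 20.0% of features, and 0 lower, against 14.7%. The median log2 ratio of the members was 0.12 in young and 0.13 in aged oocytes, beside 0.01 and 0.00 over all features. Tuba1a rested on 34 counts in aged SN oocytes and its interval, -0.21 to 0.94, spans 0.

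Tuba1c had a lowest level of 43.1, a median of 98.1 and a highest level of 137 CPM in young NSN oocytes and of 99.1, 136 and 195 in young SN oocytes. All 12 young SN oocytes lay above the young NSN median and 6 lay above the highest young NSN oocyte. In aged oocytes the values were 27.2, 85.5 and 147 CPM in NSN and 96.8, 138 and 170 in SN, with all 8 SN oocytes above the NSN median. The log2 ratio of SN over NSN was 0.52 (0.47 to 0.57) in young and 0.69 (0.63 to 0.76) in aged oocytes. It was above 0 in all 6 name runs, from 0.34 to 1.35. The highest value came from the aged names 25 to 31, and without them the aged log2 ratio was 0.40.

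Tuba1b was at 25.2, 35.4 and 56.6 CPM (lowest, median, highest) in young NSN and at 26, 47.8 and 71.6 in young SN oocytes. In aged oocytes it was at 11.7, 31.7 and 58.2 in NSN and at 33.8, 55.1 and 59.6 in SN. The log2 ratio was 0.32 (0.24 to 0.40) in young and 0.63 (0.52 to 0.73) in aged oocytes, and was above 0 in all 6 runs. The young value sits at the limit of 0.32 and was 0.20 without the young names 1 to 7, of which 1 oocyte was SN. The aged value was 0.40 without the aged names 25 to 31. The summed Tuba1 genes, which do not depend on the split of shared reads among them, gave 0.47 (0.43 to 0.51) in young and 0.67 (0.62 to 0.73) in aged oocytes.

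The summed oocyte markers were also higher in SN than in NSN oocytes. The summed level of the 10 oocyte markers had a median of 24781 CPM in young NSN and 28469 in young SN oocytes, and of 24219 and 31287 in aged ones. At the same limit 2 of the 10 were higher and 1 lower in young SN oocytes, against 10.9% and 4.38% of all features. In aged SN oocytes 8 were higher and 1 lower, against 20.0% and 14.7%. The lower one in each case was Oosp1. The granulosa marker sum had medians of 48 and 50.4 CPM in young NSN and SN and of 42.5 and 53.6 in aged NSN and SN oocytes. Of the 4 granulosa markers that passed the mean count of 10, Inha (-0.52) and Gja1 (-0.66) were lower in young SN oocytes. In aged SN oocytes Kitl (0.80) and Gja1 (0.50) were higher, and the other values were within the limit. The part of these shifts, or of the predicted configuration, in the Tuba1 differences was not tested.

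Tuba4a had the opposite order. It was at 284, 368 and 476 CPM (lowest, median, highest) in young NSN and at 251, 329 and 402 in young SN oocytes, with 1 of 12 SN oocytes above the NSN median. In aged oocytes it was at 258, 405 and 451 in NSN and at 279, 314 and 343 in SN, with 0 of 8 above the NSN median. The log2 ratio was -0.12 (-0.14 to -0.09) in young and -0.26 (-0.29 to -0.22) in aged oocytes, and below 0 in all 6 runs. Neither value passed the limit, although the log2 ratio of the aged medians did, at -0.37. With Tuba1b and Tuba1c one way and Tuba4a the other, the summed α members gave a log2 ratio of 0.06 (0.04 to 0.09) in young and 0.02 (-0.01 to 0.05) in aged oocytes.

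Tubb4b also had a lower pooled level in SN, within the limit. Its levels were 1045, 1268 and 1558 CPM (lowest, median, highest) in young NSN and 952, 1194 and 1305 in young SN oocytes. In aged oocytes they were 821, 1219 and 1585 in NSN and 958, 1022 and 1160 in SN, with 0 of 8 SN oocytes above the NSN median. In young oocytes 3 of 12 SN oocytes lay above the NSN median. The log2 ratios were -0.10 (-0.11 to -0.08) and -0.23 (-0.26 to -0.21), below 0 in 5 of the 6 name runs and at 0.0078 in the young names 1 to 7. In the aged SN group Tubb4b made up 54.6% ± 2.24 of the β level per kb (8 oocytes) and in aged NSN 59.6% ± 3.06 (37 oocytes), while Tubb6 made up 27.8% ± 1.5 and 24.5% ± 2.45.

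Tubb5 and Tubb6 differed little between configurations. Tubb5 had a log2 ratio of 0.08 (0.05 to 0.12) in young and 0.12 (0.07 to 0.17) in aged oocytes, and Tubb6 of 0.07 (0.05 to 0.09) and 0.08 (0.05 to 0.11). For the young oocytes the log2 ratio of the medians had the other sign, -0.02 for Tubb5 and -0.04 for Tubb6, so no direction is given. Tubg1 gave 0.16 (0.07 to 0.25) in young and 0.14 (0.02 to 0.27) in aged oocytes. It was below 0 in 2 of the 6 name runs and at -0.11 in the aged oocytes with the suffix A, so its direction is not given either. The combined Tubb2a and Tubb2b feature gave 0.22 (0.20 to 0.24) and 0.24 (0.21 to 0.27).

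**Figure D3:**
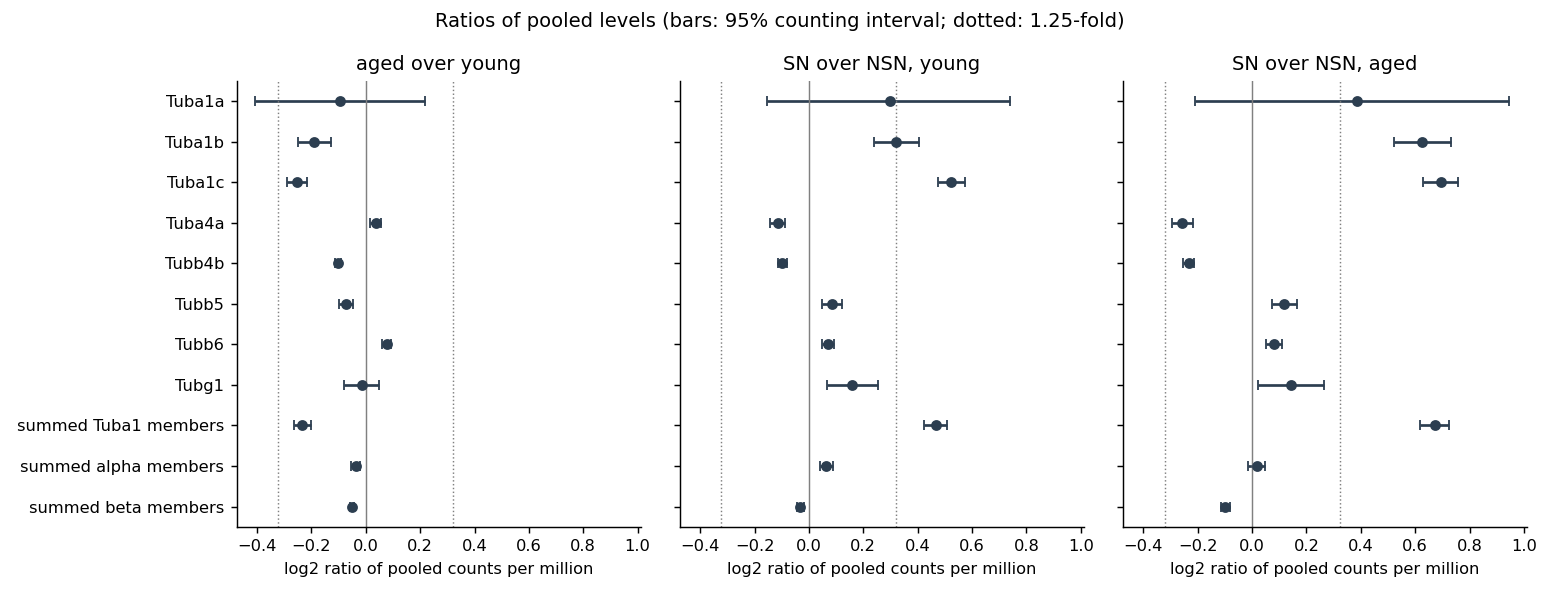
Log2 ratio of pooled CPM of the 8 members and 3 sums for aged over young oocytes, SN over NSN in young and SN over NSN in aged oocytes, with bars for the 95% counting interval and dotted lines at the limit of 0.32. Tuba1b and Tuba1c lie right of 0 in both SN over NSN panels (0.63 and 0.69 in aged oocytes) and Tuba4a and Tubb4b lie left of 0 (-0.26 and -0.23).

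The spread over oocytes was described by the coefficient of variation (CV) of the normalised counts, after the variance expected from counting had been taken off. Tuba1b and Tuba1c varied most among the 7 members that passed the mean count of 10. The CV of Tuba1c was 27.6% in young and 38.4% in aged oocytes, and that of Tuba1b 25.7% and 33.5%. The others varied less. They ran from 10.2% for Tubb4b to 16.3% for Tubb5 in young and from 12.3% for Tubb6 to 18.2% for Tubg1 in aged oocytes. All lay below the median feature with a mean count of 10 or more, at 19.4% and 22.9%. Features with a mean count of at least 100 had a median squared CV of 0.0223 in young and 0.0319 in aged oocytes. Tubb5 in young (0.0266) and Tubg1 in aged oocytes (0.0331) lay above that median, and the remaining values below it. Tuba3b, a close copy of Tuba3a, varied more than these 7 members, with a CV of 55.0% in young and 69.1% in aged oocytes and no count in 4 of the 87. The sparsely counted Tuba1a had a CV of 87.9% and 86.2%.

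The squared CV was higher in aged than in young oocytes for 5 of the 7 members and lower for Tubb5 and Tubb6. Among the 12377 features with a positive value in both ages it was higher in 74.0%, so the members' share, 71.4%, was near that of all features. The median log2 ratio of the squared CV was 0.76 over the 7 members and 0.45 over all features. Split by configuration, the counts were unlike. Within NSN oocytes the squared CV was again higher in aged oocytes for 5 of the 7 members and 73.9% of features. Within SN oocytes it was higher for 1 of the 7, Tuba1c (19% in young and 21% in aged), and for 40.1% of features, and lower for 6. Tuba1b had 25.3% in the young and 15.6% in the aged SN group, Tuba4a 12.3% and 5.89%, and Tubb6 15.4% and 7.18%, in groups of 12 and 8 oocytes. The difference between the configurations was not tested.

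**Figure D4:**
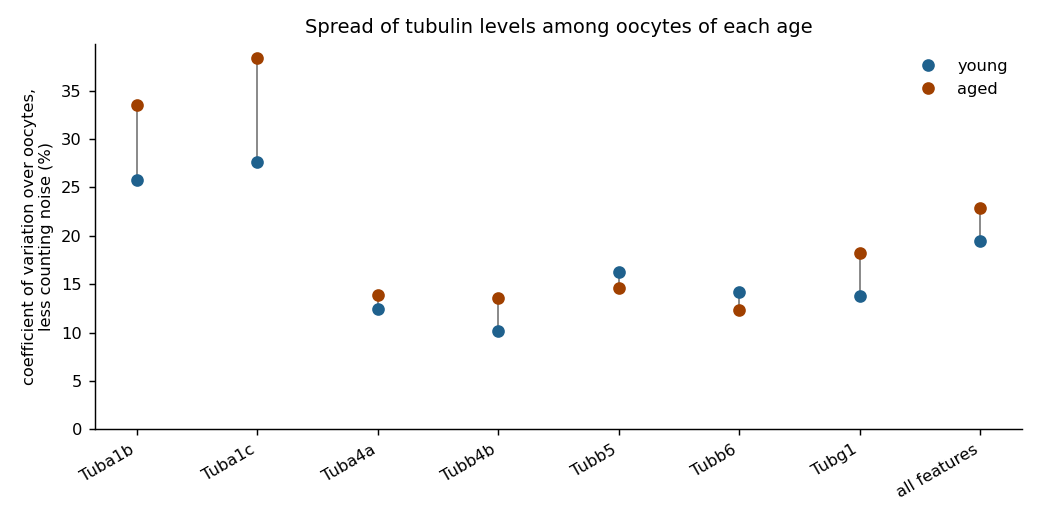
Coefficient of variation over oocytes, less counting noise, of those 7 members and the median of all features, for young and aged oocytes, in percent. Tuba1c and Tuba1b stand apart at 27.6% and 25.7% in young and 38.4% and 33.5% in aged oocytes.

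Across oocytes pairs of genes differed in how closely they varied together. Pearson's r of log2(CPM + 1) was taken over the 87 oocytes after centring within each age and configuration, and is a description, since all values of an oocyte share its library and total. Tuba1b and Tuba1c had an r of 0.74, for a pair whose transcripts share long windows, while Tuba4a had -0.09 with Tuba1b and -0.12 with Tuba1c. Tuba4a had an r of 0.56 with Tubb4b, 0.55 with Tubb3 and 0.51 with Tubb6. These lay below 0.60, the 99th percentile of r between Tuba4a and 7466 features with a mean count of at least 50. Tubb4b and Tubb5 also had an r of 0.44 and 0.43 with Tuba1c. Tubb5 and Tubb6, whose transcripts share no 100-base window with another gene, had an r of 0.65. Tubg1 and Tubg2 had an r of 0.67, and Tubg2 also had 0.67 with Tuba1c.

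Each member's r was taken with 7466 features with a mean count of at least 50. Its 99th percentile ran from 0.46 (Tubb5) to 0.64 (Tuba1c) over the members named below. The features most alike to each member were sought among these 7466. For Tuba1c they were a pair of features over C130026I21Rik (0.83 and 0.82) and Zp2, which encodes a zona pellucida protein (0.81). For Tuba1b they were Tuba1c, C130026I21Rik (0.62) and Lonp2 (0.61). Tuba4a was most like Zfp57 (0.73), a zinc finger protein that protects imprints, Grina (0.72) and Fbxw4 (0.71). Tubb4b was most like an unnamed feature that overlaps it on the other strand (0.83), Prdx2 (0.74) and Sla2 (0.70).

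Tubb5 was most like Tubb6, Fzr1 (0.57), an activator of the anaphase-promoting complex, and Rpa2 (0.57), a subunit of the single-strand DNA binding protein RPA. Tubb6 was most like Arrdc1 (0.71), Tubb5 and Rpa2 (0.63), and Tubg1 was most like Puf60 (0.70), Dnmt3l (0.67) and Tubg2 (0.67).

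**Figure D5:**
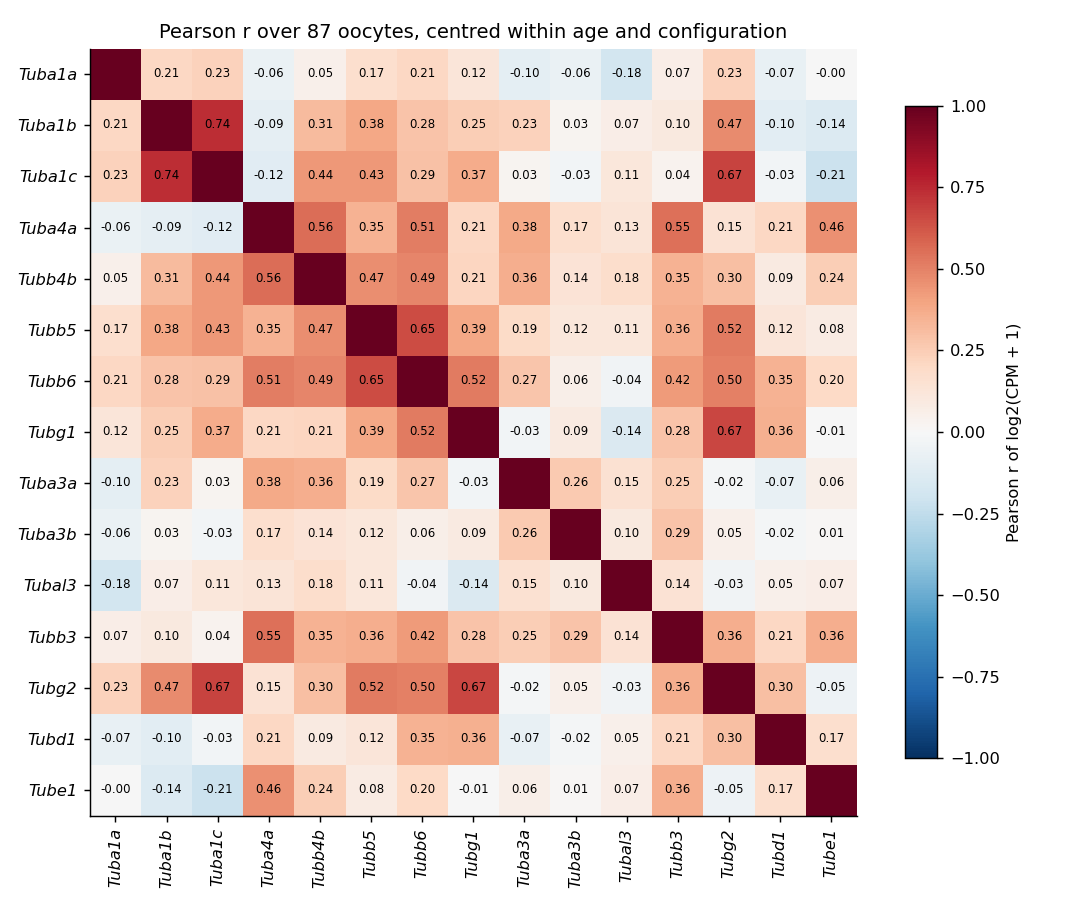
Pearson's r between the 8 members and 7 other tubulin genes over 87 oocytes, of log2(CPM + 1) centred within each age and configuration. The strongest pairs are Tuba1b with Tuba1c (0.74), Tuba1c with Tubg2 (0.67), Tubg1 with Tubg2 (0.67) and Tubb5 with Tubb6 (0.65).

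Of 10 other tubulin genes 7 had a feature. Of these 0 passed the limit in aged over young, against 1.06% of all features higher and 3.45% lower. The log2 ratios of these 7 ran from -0.29 for Tuba3b to 0.11 for Tubal3. Tuba3b stood out within SN oocytes, at 59.6 CPM in young and 30.6 in aged oocytes, a log2 ratio of -0.96 (-1.09 to -0.83), with a CV of 85.5% over the 8 aged SN oocytes. In aged oocytes it was also lower in SN than in NSN (52.0 CPM), a log2 ratio of -0.76 (-0.89 to -0.64), and in young oocytes that ratio was 0.02. Tubg2 was at 130 CPM in young NSN and 162 in young SN oocytes, a log2 ratio of 0.31 (0.27 to 0.36), and at 133 and 185 in aged ones, 0.47 (0.42 to 0.52), above 0 in all 6 runs. Tuba3a gave -0.04 and -0.22 in the same comparisons, Tubb3 0.07 and 0.04, Tubal3 0.06 and -0.12, Tubd1, the δ-tubulin of centrioles, 0.18 and 0.21, and Tube1, the ε-tubulin, 0.21 and 0.24.

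The γ-tubulin ring complex, which templates new microtubules, was represented by 8 of 9 listed genes. Between ages 0 of the 8 passed the limit, against 1.06% of all features higher and 3.45% lower. In SN over NSN 1 was higher and 0 lower at each age, the higher one being Tubgcp6, with 4.14 and 5.30 CPM in young (log2 ratio 0.36) and 3.40 and 6.93 in aged oocytes (1.03). Of all features 10.9% were higher in young and 20.0% in aged SN oocytes. The most abundant, Nedd1, which brings the complex to the spindle, gave -0.01 and 0.09, Cdk5rap2 0.00 and 0.10, and Mzt1 0.02 and 0.18.

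Folding of tubulin needs the chaperonin CCT, prefoldin and the tubulin cofactors, and 17 of 21 listed genes passed the mean count of 10. Between ages 1 was lower, Cct6a, at 6.64 CPM in young and 4.71 in aged oocytes (-0.50), and 0 were higher, against 3.45% and 1.06% of all features. In young SN over NSN 2 were higher, Cct6a (1.23) and Cct4 (0.61), and 0 lower, against 10.9% and 4.38% of all features. In aged oocytes 4 were higher, Cct6a (2.69), Cct4 (1.16), Tbcd (0.45) and Cct7 (0.42), and 1 lower, Pfdn4 (-0.50), where 20.0% of all features were higher and 14.7% lower. Another chaperonin subunit, Cct5, the most abundant of the list at 522 CPM in young and 523 in aged oocytes, gave 0.02 and 0.00.

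Enzymes of tubulin modification were represented by 13 of 16 genes. Between ages 0 of the 13 passed the limit in either direction, against 1.06% of all features higher and 3.45% lower. In young SN over NSN it was again 0 of the 13, against 10.9% and 4.38%. In aged SN over NSN 2 were higher, the glutamylase Ttll7 (0.68) and the deacetylase Hdac6 (0.48), and 2 lower, the α-tubulin acetyltransferase Atat1 (-0.37) and Svbp (-0.32), the partner of the vasohibins that remove the terminal tyrosine, beside 20.0% of all features higher and 14.7% lower. Tpgs2 and Ttll4, subunit and enzyme of glutamylation, were the most abundant and gave 0.26 and 0.03.

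The mRNA autoregulation genes were all measured. Ttc5, whose protein binds the first residues encoded by the coding starts shown above, was at 12.9 CPM in young and 9.98 in aged oocytes (-0.37), and it was higher in SN than in NSN oocytes of both ages, 0.67 in young and 0.91 in aged. Cnot11, through which the CCR4-NOT deadenylase is brought in, was lower in SN, -0.43 and -0.42, and gave 0.00 in aged over young. Scaper, the link between them, gave -0.01 and -0.05 in SN over NSN. With 3 genes, no share is set against that of all features.

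Spindle assembly genes were measured for 22 of 23. Between ages 0 of the 22 passed the limit, against 1.06% of all features higher and 3.45% lower. In young SN over NSN 4 were higher, Ran (0.64), Haus2 (0.45), Haus5 (0.37) and Haus1, and 0 lower. In aged oocytes 7 were higher, among them Ran (1.22), Haus2 (1.14), Haus5 (0.54), Kif11 (0.46), Haus6 (0.44) and Numa1 (0.41), and 3 lower, Stmn1, Pcnt and Aurka. Over all features 10.9% were higher and 4.38% lower in young SN oocytes, and 20.0% and 14.7% in aged ones. Haus1, Stmn1, Pcnt and Aurka were named after their values were seen. The list's median log2 ratio was 0.13 in young and 0.16 in aged SN over NSN, beside 0.01 and 0.00 for all features, and -0.05 in aged over young.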

How the data were processed

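The authors trimmed reads with Trim Galore, aligned them to GRCm38 with HiSat2 and deposited raw counts of primary alignments per feature of an oocyte transcriptome. The counting program and its strand setting are not given in the sources used here. The table held 88 oocytes, no pair of columns was identical, and 0 columns were left unused. Configurations were taken from the study's supplementary table. The members and gene lists were chosen with earlier results of these data known.

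From the deposited counts, CPM were computed on each oocyte's total. Group levels were counts summed over oocytes, with exact Poisson intervals, and log2 ratios have exact conditional binomial intervals (95%). These cover counting error only. Levels per kb used the length of 1 GENCODE M21 transcript inside the feature span. All members and other tubulins were named. From each other list, genes past the limit were named by size and then the most abundant, up to 6. The functions were tested on simulated data. Alternatives used edgeR 4.0.16 (TMM factors), median-of-ratios size factors, means or medians over oocytes, and counts thinned to 900000 per oocyte. Others took oocytes by name suffix, left out name runs or, in aged over young, took all 88 oocytes. Python 3.11.15, numpy 2.4.6, scipy 1.17.1 and R 4.3.3 were used. Some coding sequence ends are not reported here.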

Additional observations from a re-analysis of the deposited data

Results flagged for a closer look

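The paper excluded 1 oocyte as an outlier in a distance matrix and kept 45 aged ones. The aged oocyte without a configuration, which entered no main comparison, had a total count of 3588332. It entered an alternative of aged over young with all 88 oocytes, which gave log2 ratios of 0.12 for Tubb6 and 0.04 for Tubg1. Tubb6 stood at 1108 CPM in this oocyte, above the highest young oocyte at 657 and above all 87 other oocytes. Tubg1 stood at 68.8 CPM, against a highest young value of 45.8, and was also above all 87. Its Tuba4a level, 302 CPM, exceeded that of only 7 of the 87, and its Tubb4b level, 1112 CPM, that of 22. These were 2 results of 16 checks, 8 of them for a single oocyte far from the other aged SN oocytes, none of which was met.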

How the results depend on the processing

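No paired analysis was possible because the labels tie no oocyte to a mouse or to an oocyte of the other age. No median log2 ratio of level over the members moved by 0.1 or more in any comparison. Tuba1a, with few counts, and values near the limit of 0.32 set the counts of members past the limit. In aged over young (0 members) the suffix A only and the names without suffix each gave 1, and leaving out a name run gave 0 to 1. Within NSN (0) medians over oocytes gave 1, the names without suffix 2, and leave-outs 0 to 2. Within SN (0) means over oocytes gave 1, the names without suffix 1, and leave-outs 0 to 1. In young SN over NSN (2) TMM factors, median-of-ratios size factors and the names without suffix each gave 1, a limit of 1.5-fold gave 0, means, medians and thinned counts each gave 3, and leave-outs gave 1 to 3. In aged SN over NSN (3) medians over oocytes and suffix A only gave 4, means and a limit of 1.5-fold gave 2, and leave-outs gave 2 to 3. The median log2 ratio of the squared CV (0.76) was 0.95 in thinned counts, 0.25 with suffix A only, 1.02 without suffix and, in an alternative chosen after seeing the data, -0.88 in SN oocytes only. The number of members with the higher value in aged oocytes (5) was 1 in SN oocytes and 4 to 6 otherwise. Of the background features, 16% passed the limit in aged over young with a mean count of at least 1 and 0.988% with at least 100. For single members and sums, 605 of 660 alternative values stayed within the counting interval or within 0.1, and 0 reversed a called direction. Amplified reads without molecular identifiers make true intervals wider than those given.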
